A study of Populus ussuriensis with 8 samples.

Results

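The 200 genes described here were the steadiest well-expressed genes in the basal ends of poplar stem cuttings. They were taken from the 36385 genes listed for Populus ussuriensis. Transcript values were summed to genes, and a gene was eligible if its mean over the 8 libraries was at least 20 FPKM (fragment counts corrected for transcript length and sequencing depth) and it was not among the 100 highest means. The files do not name their unit, and FPKM is a reading of the values. The list ends within chromosome 17, and identifiers past that point were not analysed here. The rule left 5679 eligible genes. The 200 with the smallest range, which is the highest minus the lowest log2(FPKM + 1) of the 8 libraries, became members. The range that chose them is a property of all 8 libraries, so levels and differences of the members between groups are given as a description, with no claim resting on them.

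The libraries were made from the lowest 0.5 cm of cuttings of in vitro plants on half-strength Murashige and Skoog medium. They formed 4 groups of 2: 1 µM methyl jasmonate (MeJA, a volatile derivative of the wound hormone jasmonic acid) at 1 h after cutting, untreated at 1 h, MeJA at 0.5 h and untreated at 0.5 h. All cuttings were wounded, no library from before cutting was analysed here, and the age of the source plants differs between the growth and treatment texts. The labels do not say whether replicate libraries were separate cultures. The p-values therefore reflect how far replicate libraries differ, which may be technical variation. Harvest or sequencing batches were not known here, and any batch that followed the time of harvest cannot be told apart from time after cutting. The files pair no identifier with a gene name. No member is therefore given a function, tissue markers were not checked, and conventional reference gene families could not be looked up.

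Reference genes are transcripts whose level is taken as constant so that others can be measured against them, as in quantitative PCR. They are usually drawn from genes for the cytoskeleton, protein synthesis, protein turnover or basic metabolism, and their steadiness has to be examined again in each tissue and treatment. Wounding and jasmonate alter the transcription of many plant genes within a short time, which makes early samples from cuttings a demanding setting for such genes.

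Over the 4 groups the members moved little. Their highest library exceeded their lowest by 1.07-fold to 1.17-fold in FPKM, with a median of 1.14-fold, against a median of 1.56-fold over the eligible genes. On the log2 scale the range had a median of 0.183 in members and 0.627 in eligible genes. The coefficient of variation over 8 libraries was 2.25% to 6.94% in members, with a median of 4.54%, beside 16.1% in eligible genes. Most of this small spread was already present between libraries of the same group: the pooled within-group SD of log2(FPKM + 1) had a median of 0.0559 in members, and the SD over all 8 libraries a median of 0.0638. In eligible genes the same values were 0.114 and 0.228. Because the rule limited the range over all 8 libraries, it also limited differences between groups. The closeness of the 2 SDs in members follows largely from the choice.

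**Figure D1:**
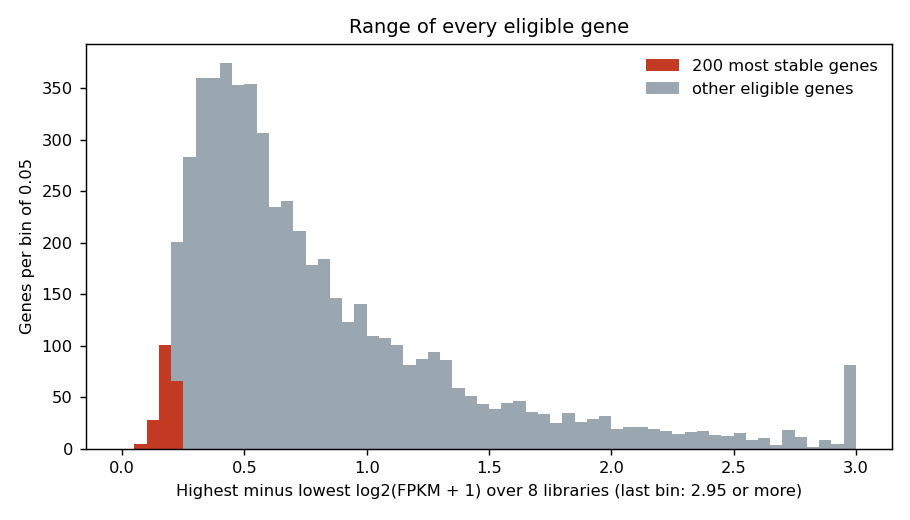
Number of genes per bin of 0.05 by range of log2(FPKM + 1) over the 8 libraries, members and other eligible genes stacked. The members occupy the lower tail up to 0.219, and the eligible genes have a median of 0.627.

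The limit fell at a place where genes lay close together. The last members were Potri.016G065200, Potri.006G149500 and Potri.016G097000, with ranges of 0.2182, 0.2182 and 0.2187. The first genes left out were Potri.013G093400, Potri.001G304000 and Potri.009G055400, with ranges of 0.2188, 0.2189 and 0.219. A range under 0.25 was found in 335 eligible genes and a range under 0.1 in 5. No gap separated the members from the genes that followed.

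Members were found over most of the range of levels that the rule allowed. A mean of 20 to 30 FPKM was found in 72 members, 30 to 50 FPKM in 66, 50 to 100 FPKM in 45 and 100 to 200 FPKM in 15. At 200 FPKM or more there were 2 members of 248 eligible genes (0.806%), where the share was 3.68% of the 1958 eligible genes at 20 to 30 FPKM. The members' median was 35.2 FPKM, close to the 38.5 FPKM of eligible genes. Together the members held 1.71% to 1.81% of the summed FPKM of a library. They lay on all 17 chromosomes listed. Chromosome 6 held 13% of members and 8.84% of eligible genes, and chromosome 8 held 4% and 6.55%.

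Potri.015G099000, on chromosome 15, had the smallest range, 0.0872. It stood at 20.4 and 20.4 FPKM in MeJA 1 h, 21.1 and 20.8 FPKM in untreated 1 h, 21.5 and 21.1 FPKM in MeJA 0.5 h, and 21.7 and 21.6 FPKM in untreated 0.5 h. Both MeJA 1 h libraries were the lowest of the 8, and both untreated 0.5 h libraries the highest. The mean was 21.1 ± 0.519 FPKM (SD over 8 libraries), a coefficient of variation of 2.46%.

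Potri.003G186500, on chromosome 3 and listed with a single transcript, combined a small range (0.0911) with a higher level. It stood at 122.0 and 122.7 FPKM in MeJA 1 h, 117.3 and 122.0 FPKM in untreated 1 h, 122.1 and 117.2 FPKM in MeJA 0.5 h, and 115.1 and 119.7 FPKM in untreated 0.5 h. Values of all 4 groups overlapped with those of at least 1 other group, and untreated 0.5 h held the lowest library.

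Potri.005G020900, on chromosome 5, was the most abundant of the 10 steadiest members. It stood at 168.8 and 177.5 FPKM in MeJA 1 h, 180.2 and 180.2 FPKM in untreated 1 h, 178.1 and 178.3 FPKM in MeJA 0.5 h, and 168.7 and 179.5 FPKM in untreated 0.5 h. Its 2 low libraries belonged to different groups, and each was lower than the other replicate of its own group.

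The other 7 of the 10 smallest ranges lay between 0.0978 and 0.119. Potri.001G414700 on chromosome 1 averaged 20.3 ± 0.58 FPKM, and Potri.014G043300 on chromosome 14 averaged 52.0 ± 1.17 FPKM, with the lowest coefficient of variation of all eligible genes (2.25%). Potri.002G104000 on chromosome 2 averaged 46.4 ± 1.23 FPKM and Potri.006G119000 on chromosome 6 averaged 33.8 ± 0.986 FPKM, both with a single transcript. Potri.003G096700 on chromosome 3 averaged 76.7 ± 2.39 FPKM, Potri.001G137200 on chromosome 1 averaged 85.4 ± 2.44 FPKM and Potri.003G033700 on chromosome 3 averaged 34.5 ± 1.15 FPKM (SD over 8 libraries in each case). These 10 genes thus span levels of about 20 to 176 FPKM.

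**Figure D2:**
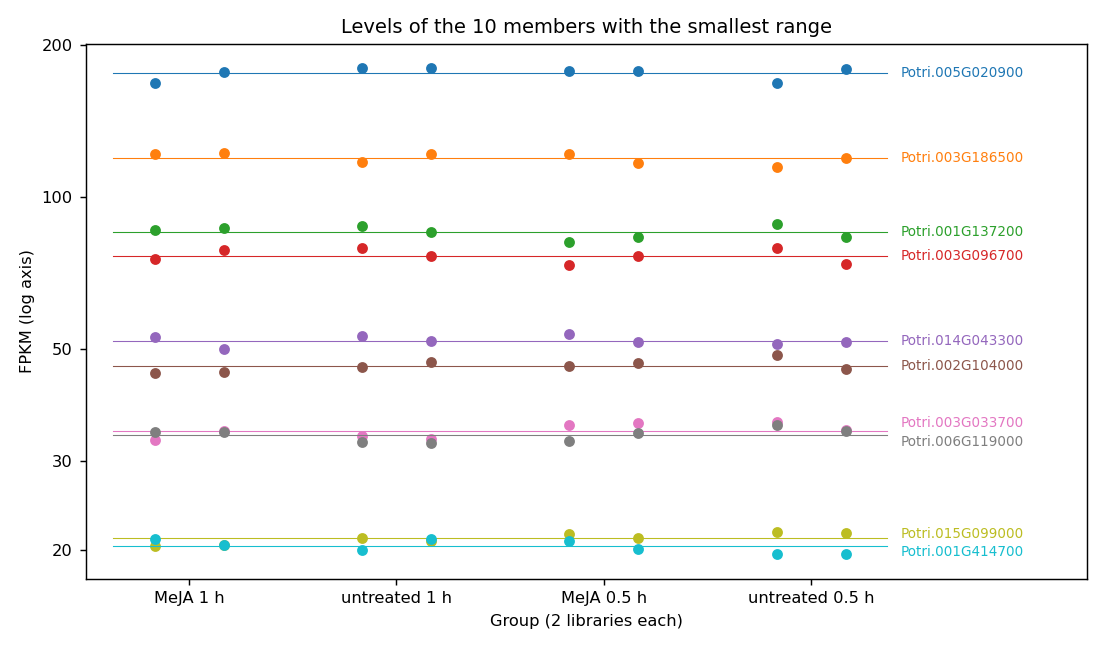
FPKM (log axis) of the 10 members with the smallest range in the 8 libraries, with the mean of each gene as a line. Points lie close to their line in all 4 groups, from Potri.001G414700 at 20.3 FPKM to Potri.005G020900 at 176 FPKM.

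At the upper end of the levels, Potri.012G033000 averaged 312 ± 13.4 FPKM, Potri.009G086900 averaged 206 ± 8.98 FPKM and Potri.006G205700 averaged 186 ± 9.97 FPKM (SD over 8 libraries). Potri.012G033000 stood at 322 and 319.8 FPKM in MeJA 1 h, 307 and 314 FPKM in untreated 1 h, 313 and 307 FPKM in MeJA 0.5 h, and 285 and 330.3 FPKM in untreated 0.5 h. Its lowest and highest library were the replicates of 1 group. The lowest means were those of Potri.001G083800 (20.3 ± 1.028 FPKM), Potri.007G126900 (20.3 ± 0.988 FPKM) and Potri.016G065200 (20.2 ± 1.31 FPKM), close to the limit of 20.

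The next comparison set the members at 1 h against 0.5 h. Mean FPKM at 1 h was 0.901 to 1.09 times that at 0.5 h, with a median of 0.992, while the median over eligible genes was 0.933. The mean log2 value was higher at 1 h in 91 of 200 members (45.5%) and in 41.7% of eligible genes. In limma, fitted on 24347 genes, 0 of 200 members changed over both treatments at an adjusted p of 0.05, and 0 had an unadjusted p under 0.05, beside 60.2% and 64.6% of all genes tested. Counts were also 0 in MeJA cuttings (background 43.3%) and in untreated cuttings (48.6%), with 0 unadjusted beside 51.7% and 55.6%. The rule used these libraries, so nothing is read from the zeros.

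In some members the times did not overlap. The 4 libraries of 1 h all lay above the 4 of 0.5 h in 5 members, where 18.1% of all genes tested did so, and all lay below in 15 members, beside 37.3%. The 5 above, chosen after their values were seen, were Potri.006G250900, Potri.011G096100, Potri.009G027900, Potri.001G206100 and Potri.006G233000. Potri.006G233000 stood at 36.7, 36.9, 37.8 and 37.0 FPKM at 1 h and at 32.5, 33.9, 34.3 and 35.01 FPKM at 0.5 h. Its log2 difference of 0.13 ± 0.063 (SE) did not pass (limma adjusted p = 0.11). Among the 15 below, likewise chosen after their values were seen, Potri.012G136100 had the largest difference between the times of any member. It stood at 22.1, 22.1, 22.4 and 22.4 FPKM at 1 h and at 24.7, 25.7, 25.7 and 22.6 FPKM at 0.5 h. Its log2 difference was -0.14 ± 0.069 (SE; limma adjusted p = 0.099). The lowest library of 0.5 h lay close to those of 1 h.

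Between MeJA and untreated cuttings the members' FPKM ratio, over both times, was 0.907 to 1.07, with a median of 0.994, beside 0.998 in eligible genes. No member (0 of 200) differed at 1 h, at 0.5 h, over both times or in the interaction of MeJA and time (limma), and the count at an unadjusted p under 0.05 was also 0. All genes tested gave 0% adjusted in these 4 comparisons, and 5.93%, 7.8%, 3.66% and 9.32% unadjusted in that order. The 4 MeJA libraries all lay above the 4 untreated in 2 members (1%, background 0.292%), Potri.014G078100 and Potri.009G031300. They all lay below in 3 (1.5%, background 0.366%), Potri.005G200100, Potri.006G059700 and Potri.014G062800. These 5 were singled out after their values were seen. The rule used these libraries and limited the members' differences between times. Wide differences between times make it harder for 4 MeJA libraries to separate from 4 untreated ones. Nothing is therefore read from the higher shares among members. Potri.014G062800 had 94.5, 99.6, 93.2 and 98.3 FPKM in MeJA libraries, against 108.3, 106.3, 108.5 and 102.1 FPKM in untreated ones. This was the lowest MeJA ratio among members, and its log2 difference was -0.14 ± 0.07 (SE; limma adjusted p = 1.0).

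How steady such genes are in libraries that did not choose them was measured by applying the rule to 4 libraries and reading the other 4. Genes chosen in the replicate 1 libraries had a median range of 0.0958 there. In the replicate 2 libraries the same genes had a median of 0.233, with single genes between 0.0125 and 0.734. The eligible genes had a median of 0.518 in those libraries, and 195 of the 200 chosen genes lay below it. With the numbers exchanged, the median was 0.221 in the replicate 1 libraries against 0.494 for eligible genes, with 187 of 200 below that median and a highest single gene of 0.974. Genes chosen in MeJA libraries had a median of 0.247 in untreated ones, beside 0.538 for eligible genes, and genes chosen in untreated libraries 0.208 in MeJA ones, beside 0.468. In both of these cases 188 of 200 lay below the median of eligible genes, and the highest single genes had ranges of 0.922 in untreated and 0.741 in MeJA libraries. Each choice from 4 libraries shared 76 to 87 genes with the 200 chosen from 8. Choice and reading both used the deposited values, so a shift common to the libraries of a time enters both.

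The same separation allowed a test over time in libraries outside the choice, added after the data were seen. Choice and test both used the deposited values, and the shares given here hold for that scale. How the members depend on scaling is described below. Of 200 genes chosen in MeJA libraries, 10 (5%) changed between 1 h and 0.5 h in a limma fit of the 4 untreated libraries alone at an adjusted p of 0.05, 4 upward and 6 downward. Of all genes tested 45.3% changed in that fit, and 49.7% of the eligible genes. Of 200 genes chosen in untreated libraries, 17 (8.5%) changed in the 4 MeJA libraries, 11 upward and 6 downward, beside 43.2% of all genes tested and 53.6% of the eligible genes. The log2 differences of the chosen genes reached -0.83 and 0.55 in untreated libraries and -0.54 and 0.63 in MeJA libraries. Individual genes that look flat in 4 libraries therefore differed by over 0.5 (log2) in the others.

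Averaging 10 or more genes gave a narrower range than the single steadiest gene. This was read on the deposited values only, and averaging does not remove a shift common to a whole library. The scaling of libraries is described below. Read in the 4 libraries that did not choose it, the single steadiest gene had a range of 0.156 to 0.266 over the 4 ways of choosing. The mean log2 value of the 5 steadiest had a range of 0.0713 to 0.182, and that of the 10 steadiest 0.0685 to 0.154. For the 20 steadiest it was 0.0566 to 0.0789, for the 50 steadiest 0.0221 to 0.0956, and for all 200 0.0269 to 0.0715. The highest value for 50 genes was above that for 20, so the range did not narrow at every step. Values for 2 and 3 genes, 0.107 to 0.228 and 0.137 to 0.228, overlapped with those for 1 gene.

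**Figure D3:**
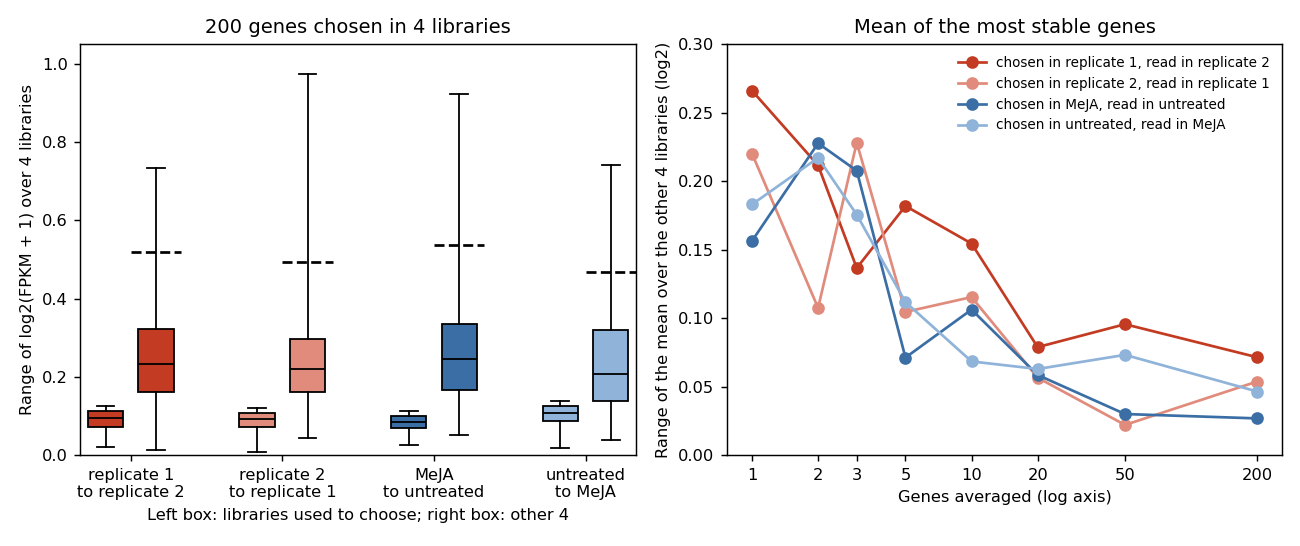
Left, range of log2(FPKM + 1) of the 200 genes chosen in 4 libraries, in those libraries and in the other 4 (box, quartiles and median; whiskers, lowest and highest; dashed line, median of eligible genes in the other 4). Right, range in the other 4 libraries of the mean of the 1 to 200 steadiest genes (log axis); the mean of 20 genes stays between 0.0566 and 0.0789.

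The pairwise measure used for reference genes in geNorm, M, is not altered by shifting a whole library on the log scale. It is the mean SD of the log2 ratio of a gene to each other gene. Within the 200 it was 0.0687 to 0.11 with a median of 0.0869. Potri.015G099000 had the lowest M, and Potri.011G061200 the highest. Against all eligible genes, M was 0.323 to 0.346 in members and had a median of 0.395 in eligible genes. M was taken over the same libraries that chose the members by a small range. A low M of members therefore follows largely from the choice, and nothing is read from it. The 200 genes of lowest M among eligible genes included 86 of the members.

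Which genes counted as steady depended on how libraries were scaled. The median log2 value of the 23221 genes averaging 1 FPKM or more was lower by 0.17 at 1 h than at 0.5 h in the deposited values. When each library was centred on that median, members had a median log2 difference of 0.16 between 1 h and 0.5 h, and 200 of 200 were higher at 1 h. Centring adds the same 0.17 to the difference of every gene, and the rule had kept the members' differences between -0.14 and 0.13, so this count follows from the choice and nothing is read from it. Limma then called 80 members (40%) over both treatments, all 80 of them higher at 1 h, where 54.3% of all genes tested were called in either direction. The median range of the members was 0.298 after centring and 0.195 after quantile normalization, against 0.183 as deposited. Choosing 200 genes anew after centring gave 27 of the members, and the genes so chosen were lower at 1 h in the deposited values, with a median of -0.17 and 0 of 200 higher, which follows largely from the same shift. Choosing anew after quantile normalization gave 127 of the members. Read counts were not used here, and which scale reflects the RNA content of the cuttings was not tested.

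**Figure D4:**
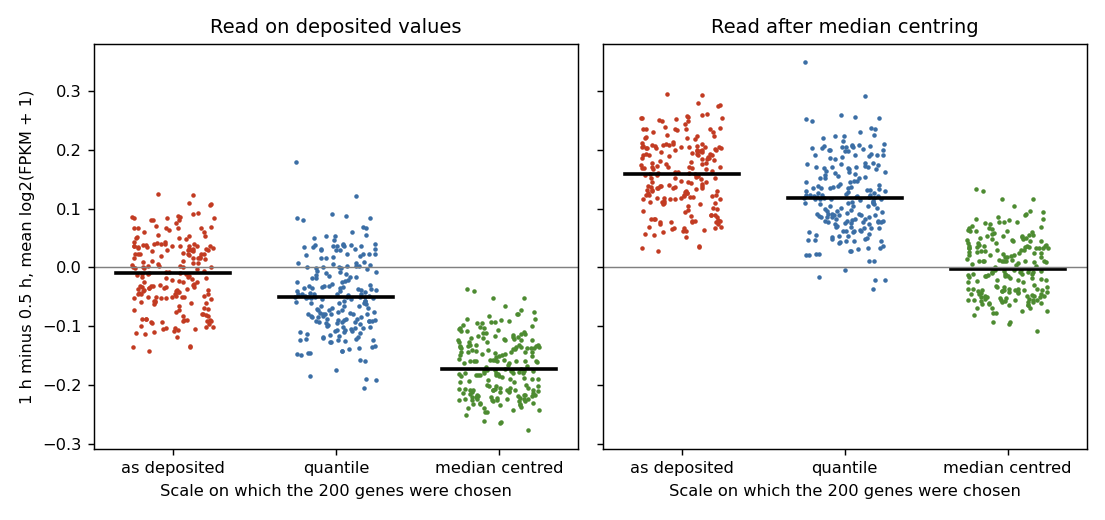
Difference in mean log2(FPKM + 1) between 1 h and 0.5 h of 200 genes chosen on each of 3 scales, read on deposited values (left) and after median centring (right); points are genes and bars medians. The members have a median of -0.01 as deposited and 0.16 after centring, the genes chosen after quantile normalization -0.05 and 0.12, and those chosen after centring -0.17 and -0.0035.

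A group of 24 members was among the 200 on all 3 scales. Like all 200 genes chosen after centring, these 24 had a lower mean log2 value at 1 h than at 0.5 h as deposited. By the smallest of the largest range over the 3 scales, the steadiest members were Potri.009G113000, Potri.015G099000, Potri.004G155000, Potri.003G033700 and Potri.001G440100. Potri.009G113000, on chromosome 9, stood at 62.7 and 63.9 FPKM in MeJA 1 h, 63.8 and 62.9 FPKM in untreated 1 h, 70.1 and 70.4 FPKM in MeJA 0.5 h, and 67.1 and 66.0 FPKM in untreated 0.5 h. Every 1 h library was below every 0.5 h library in these values. The same was true of Potri.004G155000, Potri.003G033700 and Potri.001G440100, but not of Potri.015G099000. The range of Potri.009G113000 was 0.164 as deposited, 0.161 after quantile normalization and 0.14 after centring. Potri.015G099000 had ranges of 0.0872, 0.0785 and 0.165 in the same order. Potri.004G155000, with a single transcript, averaged 29.4 ± 1.36 FPKM and had ranges of 0.168, 0.096 and 0.149. Potri.001G440100 averaged 22.9 ± 1.13 FPKM and had ranges of 0.172, 0.0987 and 0.118. Potri.003G186500, second by range as deposited, had a range of 0.304 after centring.

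The rule takes only the sum over a gene's transcripts and did not use the shares of isoforms in it. Members were listed with a median of 3 transcripts and eligible genes with a median of 2. A single transcript was listed for 45 members (22.5%) and for 40.1% of eligible genes, and 4 or more for 72 members (36%) and 23.3% of eligible genes. Of eligible genes with 1 transcript 1.98% were members, of those with 2 or 3 it was 3.99%, and of those with 4 or more 5.44%. In the 155 members with several transcripts the most abundant isoform held a median of 37.9% of the gene, and in 107 it held under 50%. In no member (0 of 155) did it hold over 90%, and in eligible genes in 7 of 3403. Shares were close to even: the effective number of isoforms (the exponential of the Shannon entropy of the shares, which equals the number listed when shares are equal) had a median of 98.2% of the number listed in members and 97.8% in eligible genes. How reads common to several isoforms were assigned is not given in the sources used here, and its part in these shares was not tested.

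The rule chose a small range of the sum, so a comparison of an isoform's range with its gene's, or with that of other genes, is a description from which nothing is read. The range of the major isoform was wider than that of the gene in 125 of 155 members (80.6%) and in 50.9% of eligible genes with several transcripts. It was at least 2 times as wide in 13 members (8.39%) and in 0.558% of those genes. In 59 of 155 (38.1%) it stayed within 0.219, the highest range of a member. The median range of the major isoform was 0.243 in members and 0.577 in eligible genes with several transcripts. The isoform with the highest share differed between libraries in 57 members (36.8%) and in 27.5% of eligible genes with several transcripts. The major share had a median of 37.9% in these members and 43.4% in those eligible genes. With shares close to even, small differences can change which isoform is highest, so nothing is read from these counts.

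No share of an isoform of a member passed the test of change. Very few did so over all isoforms, so nothing is read from the zeros. Shares within a gene depend on each other, so its isoforms are not separate items. The log2 odds of the share were tested in limma for 24868 isoforms of 7694 genes, among them 557 isoforms of the 155 members. Between 1 h and 0.5 h 0 of 557 passed at an adjusted p of 0.05, where 0.105% of all isoforms did. At an unadjusted p under 0.05 there were 28 (5.03%), 15 with a higher share at 1 h, where all isoforms gave 9.33%. Between MeJA and untreated cuttings 0 passed, as over all isoforms (0%), and 19 had an unadjusted p under 0.05 (3.41%, background 5.06%). Further tests of shares were added after the data were seen, and each again gave 0 member isoforms. In MeJA cuttings over time 16 had an unadjusted p under 0.05 (2.87%), where all isoforms gave 0.0402% adjusted and 7.4% unadjusted. In untreated cuttings over time there were 19 (3.41%), where all isoforms gave 0.0483% and 7.49%. For MeJA at 1 h there were 14 (2.51%, background 5.17%), for MeJA at 0.5 h 10 (1.8%, background 5.01%) and for the interaction 7 (1.26%, background 5.18%), all 3 with 0% adjusted over all isoforms. The range of the major share over 8 libraries had a median of 4.21 percentage points in members and 4.42 in eligible genes. Its within-group SD had a median of 1.39 and 1.41 points. The major share thus varied between replicates about as much in members as in eligible genes, which include the members. The unadjusted percentages of member isoforms given above were below those of all isoforms in each comparison, and the reason was not tested.

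The smallest p over time belonged to isoform 2 of Potri.015G004600, which held 11.8%, 12.6%, 13.4% and 14.2% of the gene at 1 h and 10.1%, 10.05%, 12.2% and 10.4% at 0.5 h. The groups overlapped in 1 library of each. Its log2 odds differed by 0.29 ± 0.071 (SE; limma adjusted p = 0.22). This isoform had a low level, 2.75 to 3.47 FPKM over the 8 libraries. Isoform 1 of Potri.010G239100 held 39.9% ± 1.42 at 1 h and 34.6% ± 2.23 at 0.5 h (SD, n = 4; limma adjusted p = 0.24). All 4 libraries of 1 h were above the 4 of 0.5 h, and the gene's range was 0.212. Isoform 3 of Potri.001G038000 held 17.9% ± 1.3 at 1 h and 21.8% ± 0.859 at 0.5 h, again without overlap (SD, n = 4; limma adjusted p = 0.24). Isoform 3 of Potri.013G129600 held 27.0% ± 0.836 at 1 h and 29.9% ± 1.033 at 0.5 h, also without overlap (SD, n = 4, limma adjusted p = 0.31). Isoform 2 of Potri.007G003100 held 11.9% ± 0.815 at 1 h and 10.2% ± 0.717 at 0.5 h, with overlap (SD, n = 4, limma adjusted p = 0.35). These isoforms were picked for their small p, and the share of all isoforms without overlap was not counted. Nothing is therefore read from a lack of overlap. The isoform of Potri.007G003100 was also low, at 2.94 to 3.92 FPKM, and that of Potri.001G038000 stood at 4.39 to 6.43 FPKM. Those of Potri.010G239100 and Potri.013G129600 stood at 13.7 FPKM or more.

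The widest range of a major share was found in Potri.001G083800, a member of low level. Its isoform 2 held 54.5% and 50.3% of the gene in MeJA 1 h, 45.9% and 36.6% in untreated 1 h, 43.8% and 48.3% in MeJA 0.5 h, and 43.1% and 43.4% in untreated 0.5 h. The highest libraries were those of MeJA 1 h, and the lowest was 1 replicate of untreated 1 h. The isoform ranged from 7.07 to 11.3 FPKM, a log2 range of 0.609, while the gene's range was 0.186. It was the only member with a major isoform range over 0.5. Potri.005G095300 (isoform 8), Potri.005G146000 (isoform 2) and Potri.015G004600 (isoform 3) followed, with ranges of 13.3, 12.6 and 11.01 percentage points, and Potri.010G239100 (isoform 2) with 9.93 points.

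**Figure D5:**
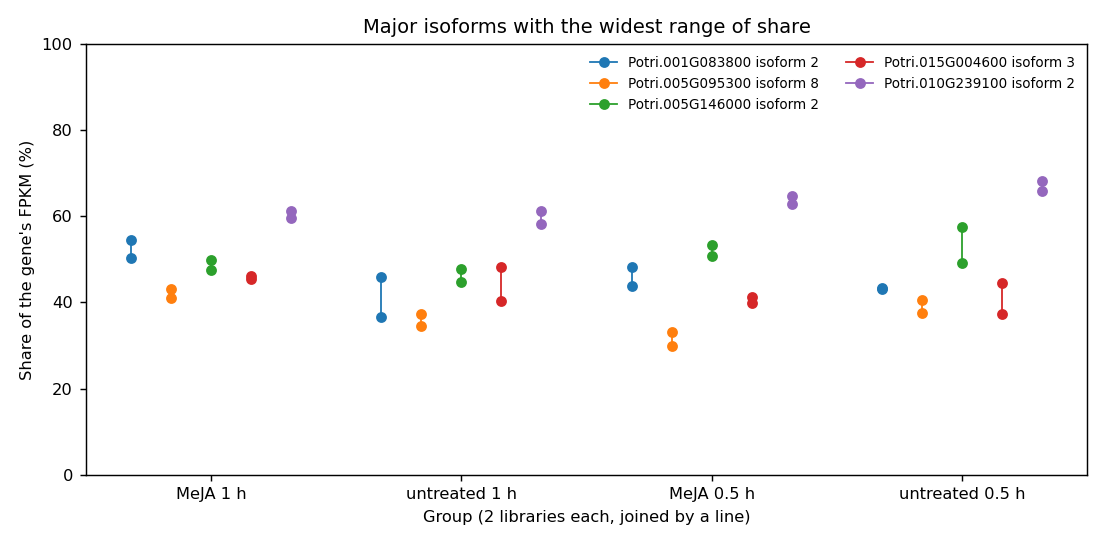
Share (%) of the gene's FPKM held by the major isoform in the 5 members with the widest range of that share, with the 2 libraries of each group joined by a line. Isoform 2 of Potri.001G083800 spans 36.6% to 54.5%.

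Among the 10 steadiest members the structure differed. Potri.003G186500, Potri.001G414700, Potri.002G104000 and Potri.006G119000 were listed with a single transcript, so gene and transcript values coincide. Potri.001G137200 had 2 transcripts, and its major isoform, with 55.7% of the gene, had a range of 0.117 beside 0.118 for the gene. Potri.014G043300 had 8 transcripts, and its major isoform, with 17.6% of the gene, had a range of 0.329, or 3.36 times that of the gene.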

How the data were processed

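For each library the authors deposited 1 value per transcript. Per the file headers and labels no unit is stated. The values as deposited by the authors were taken to be FPKM, already scaled by length and depth, because they are not whole and sum to 549538 to 577002 per library. HISAT2 2.1.0 and Bowtie2 2.2.3 are named, per the submitters' processing notes, without roles. No quantification tool, build, annotation or strand setting was given in these sources. Each file lists 65535 transcripts, ending within chromosome 17; later identifiers were not analysed here. Absolute depth is unknown; low values of single-transcript genes placed libraries at 0.933 to 1 times the depth of untreated 0.5 h replicate 1, and 22555 to 23236 genes per library reached 1 FPKM. No 2 libraries were identical (0 pairs).

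Transcripts were summed to genes in Python 3.11.15 (pandas 2.3.3, numpy 2.4.6). The 24347 genes reaching 1 FPKM in 2 or more libraries were tested as log2(FPKM + 1), which understates changes of low values, with limma 3.58.1 under R 4.3.3, using trended and robustly moderated variances and Benjamini-Hochberg adjustment over all genes, fitting 4 group means or, over both times or treatments, an additive model. Isoform log2 odds (pseudocount 0.5) were tested alike, for genes of at least 5 FPKM in each library and mean shares of 10% to 90%. Both procedures were run on simulated independent values with a planted shift over time. Those values lacked the common shift between libraries and the dependence of shares within a gene. No accuracy for these data is read from them. Paralogs and overlapping genes could share reads.

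Members and lists were chosen with earlier results of these data known. Named genes were the 10 smallest ranges, 3 highest and 3 lowest means, 3 on each side of the limit, the 5 smallest largest-ranges over 3 scalings, and for isoforms the 5 smallest p over time and the 5 widest major shares. Planned gene lists, markers and promoter motifs were not run without annotation.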

Additional observations from a re-analysis of the deposited data

How the results depend on the processing

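Of the 200 members, 127 remained after quantile normalization, 27 after median centring, 101 with a mean of at least 5 FPKM, 62 with at least 50 (all 62 that reach that level), and 86 by geNorm M. Choosing in replicate 1, replicate 2, MeJA or untreated libraries only kept 78, 81, 76 and 87. Replacing the sum by the isoform mean or the most abundant isoform, chosen after seeing the data, kept 71 and 85 of the 71 and 92 members that were then still eligible. The upper limit on means changed no member (200 kept). Leaving out 1 library kept 128 to 170, with 128 without untreated 0.5 h replicate 1. The median range was 0.242 for means of 50 FPKM or more, and 0.155 to 0.175 with 1 library left out. Over both treatments, 2 members (Potri.006G233000 and Potri.008G065800) changed with time after quantile normalization (55% of all genes) and 80 after centring (54.3%), which called 10 in MeJA (38.7%) and 28 in untreated cuttings (42.3%). Leaving out a library gave 0 to 1 over both treatments, the 1 being Potri.012G136100 without untreated 0.5 h replicate 2, and 0 to 0 otherwise. MeJA and isoform counts were 0 under every alternative run. In the main fits 0% of all genes tested passed in the MeJA comparisons, and at most 0.105% of all isoforms in any comparison. Deviations of same-numbered libraries from their group means had correlations of -0.116 to 0.0328. This does not show whether same-numbered libraries were handled together. The replicate block gave 0 members in every comparison. The rule used these libraries, so nothing is read from member counts of 0. With 2 libraries a group and unknown depth, what depth limits was not measured.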

Other observations

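Which library was highest or lowest was uneven among the members. Untreated 0.5 h replicate 1 was the highest of the 8 libraries for 56 members (28%) and for 17.6% of eligible genes. Untreated 0.5 h replicate 2 was the highest for 33 members (16.5%) and for 22.2% of eligible genes. Untreated 1 h replicate 2 was the lowest for 36 members (18%) and for 24.0% of eligible genes, and it was the highest for 12 members (6%) beside 14.6% of eligible genes. The mean log2 level of the members differed by 0.0343 between the highest and the lowest library, while the median of genes averaging 1 FPKM or more differed by 0.221.

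The number of transcripts listed per member depended on the gene value used. With the mean over isoforms in place of their sum, 3271 genes were eligible, 71 of the members were among them, and 52.5% of the 200 genes so chosen had a single transcript, beside 68.5% of the genes then eligible. With the most abundant isoform, 3649 genes were eligible, and 47% of the 200 had a single transcript beside 61.6%. The share with a single transcript was lower among the steadiest genes than among eligible genes under each of the 3 gene values. These values are not independent. The mean over isoforms is the sum divided by the gene's number of transcripts. Apart from the pseudocount, it alters which genes are eligible and not their ranges.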
